A study of Mus musculus with 12 samples.

Results

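Keratinocytes that carry integrin alpha5 (A5-positive, labelled migrating tongue) were compared with A5-negative keratinocytes of the adjoining wound edge in wild-type mice, across all genes. The comparison rests on the libraries labelled wild type, 3 A5-positive and 3 A5-negative, which are 6 of the 12 libraries of the series. Mouse skin was wounded 3 days before harvest, and a ring of 0.25 mm around the wound was cut out and digested. Live Epcam-positive cells that carried integrin alpha6 were split by integrin alpha5 (A5), after cells with CD45, CD31 or CD117 had been set aside. RNA of each fraction was amplified with a low-input kit, and 2 or 3 mice were pooled for each group and sequencing run. The other 6 libraries are the A5-positive and A5-negative fractions of mice deficient in RORgt through a GFP knock-in, wounded and sorted in the same way. A library is therefore called a pool below, and each p-value measures the spread between pools, not between single mice. Neither strain nor age of any group is stated in the labels. Pools carry the numbers 1 to 3, and a number pairs the A5-positive with the A5-negative pool.

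After injury, basal keratinocytes at the margin loosen their hold on the basement membrane and crawl under the scab as a thin sheet, the migrating tongue. Behind it, cells of the wound edge stratify and build the layers that later become barrier. Integrin alpha5 pairs with integrin beta1 as a receptor for fibronectin, the provisional matrix on which the tongue moves, and keratins 6 and 16 mark epidermis that has been activated by wounding.

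Total counts of the 6 wild-type pools ran from 29259516 to 57324268, and genes of the mitochondrial genome took 0.312% to 0.793% of them. The noncoding gene Gm26917, chosen after its values were seen, took 0.109%, 0.147% and 0.182% of A5-negative and 0.654%, 0.415% and 0.769% of A5-positive counts, a rise of 2.04 ± 0.26 (adjusted p = 0.00135) on the log2 scale that held without each pool, and its part in the results was not tested. Itga5, the gene behind the sort (GRCm38 chromosome 15, 103344286 to 103366763), stood at 51.97, 42.2 and 46.3 CPM (counts scaled to library size with TMM factors) in A5-negative pools 1 to 3 and at 85.1, 101 and 97.2 CPM in A5-positive pools 1 to 3. Since the sort used its product, this checks the labels and is no finding. Krt6a and Krt16, the other markers of the migrating tongue, are described below. Itga6 (525, 822 and 601 against 794, 921 and 599.6 CPM) and Epcam (645, 766 and 828 against 344, 549.8 and 667 CPM) were present in all pools, with levels that overlapped between the fractions. Epcam, also used in the sort, passed the test at -0.56 ± 0.14 (adjusted p = 0.0262), a call that ended without A5-negative pool 1 (0.106), A5-negative pool 3 (0.0922), A5-positive pool 1 (0.128) or A5-positive pool 2 (0.0991), where brackets give the adjusted p left. Itga6 did not at 0.25 ± 0.14 (adjusted p = 0.257). Of the genes for the excluded surface proteins, Ptprc (CD45) reached 39.3, 2.74 and 10.6 CPM without and 3.13, 3.18 and 4.85 CPM with integrin alpha5. The corresponding levels of Kit (CD117) were 9.39, 7.63 and 6.65 and 3.48, 4.02 and 8.55 CPM, and those of Pecam1 (CD31) were 5.81, 2.40 and 1.03 and 17.01, 0.991 and 0.639 CPM.

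Transcripts of other cells differed between the fractions. The summed level of 8 defining fibroblast genes ranged from 75.6 to 225 CPM among A5-negative and from 3711 to 8081 CPM among A5-positive pools, and 8 of 8 passed the test. Col3a1, a collagen of fibroblasts, stood at 58.9, 29.9 and 105 CPM against 1564, 2583 and 3542 CPM. Over the whole list of fibroblast and dermal matrix genes, 116 of 186 rose and 1 fell, and the summed level was 19969 to 24948 CPM against 24524 to 33273 CPM. The defining macrophage genes summed to 66.5 to 1138 CPM against 73.6 to 126 CPM, and the defining Langerhans cell genes to 323 to 3873 CPM against 310 to 963 CPM. A5-negative pool 1 was the highest in both, and none of these defining genes passed. In the wider lists 1 of 28 macrophage genes and 1 of 16 Langerhans and dendritic cell genes fell and none rose. Of 17 endothelial genes 4 rose and none fell (without the block 1 higher, on leaving out 1 pool 1 to 4 higher, robust 1 higher), with a summed level of 18.3 to 50.1 CPM against 123, 32.9 and 25.4 CPM in A5-positive pools 1 to 3 over the 21 genes listed. Its tested defining genes Pecam1, Kdr and Tie1 did not pass, and its part in the results was not tested. In bulk libraries fewer cells of a type and less RNA per cell cannot be told apart, and the part of these cells in the results below was not tested.

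Of 16677 genes tested, 2394 (14.4%) changed in wild-type mice (edgeR quasi-likelihood test with the pool number as a block, adjusted p under 0.05). Of these, 1461 (8.76%) were higher and 933 (5.59%) lower in A5-positive cells, and the median log2 fold change of all genes was 0.026. Without the block, 520 were higher (3.12%) and 55 lower (0.33%), and all of these were also called with it. Levels of the 3 A5-positive pools lay above those of the 3 A5-negative pools for 2650 genes (15.9%) and below them for 1521 (9.12%). The count of calls fell to 861, 1436 or 579 without A5-negative pool 1, 2 or 3, and to 843 or 776 without A5-positive pool 1 or 2. A total of 498 genes (2.99%), 397 higher and 101 lower, kept the call without each of the 6 pools in turn, and such a gene is called robust below. These fits kept the block, and a robust call could still be lost without it. Without the block, 0 genes were lower in the keratin, epidermal transcription factor, Wnt, cytoskeleton, guidance and immediate early lists. The robust falls of those lists below were therefore not called without the block. Leaving out the genes on lists for cell division, glycolysis and other cell types left 1159 higher and 926 lower genes. On those lists, 164 of 192 cell division genes and 14 of 28 glycolysis genes were higher, and they are not described further. From here on, a change is the log2 fold change of A5-positive over A5-negative ± its standard error.

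**Figure D1:**
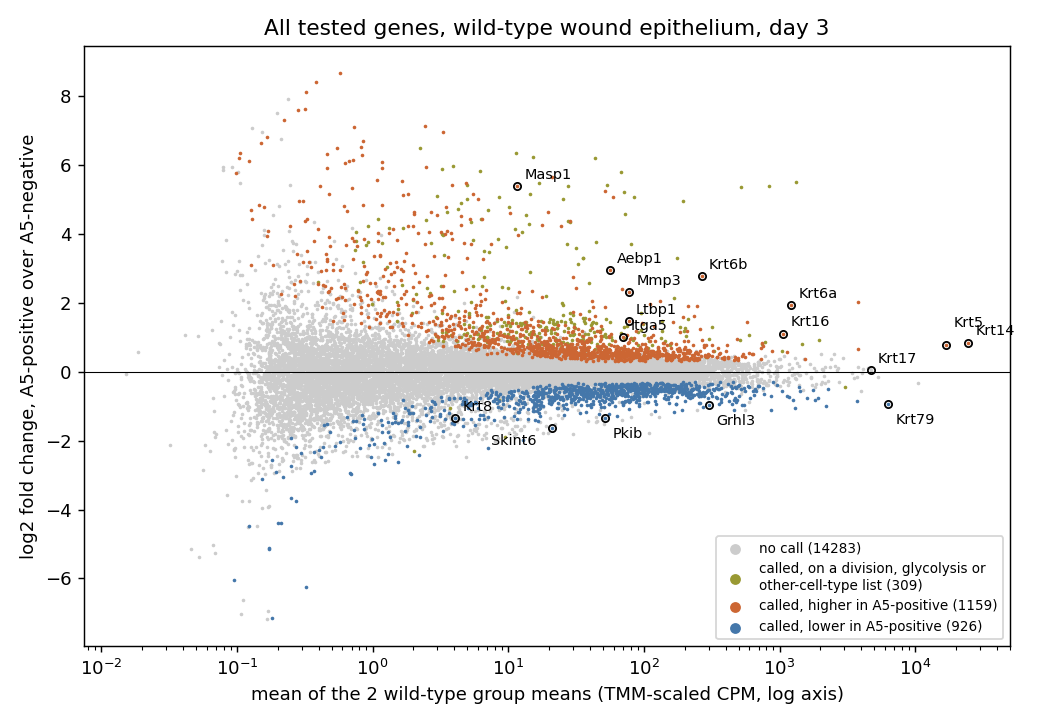
Log2 fold change of each of the 16677 tested genes against its mean level in the wild-type groups (log axis), with 1159 higher and 926 lower genes in colour beside 309 called genes on lists for division, glycolysis or other cell types. Krt6a at 1.94, Krt14 at 0.84 and Krt79 at -0.95 lie far right, and Masp1 at 5.39 lies among the fibroblast genes at the top.

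Over all genes, 8.76% were higher and 5.59% lower. Keratinocyte differentiation, junction, Skint and immediate early genes held more falls than rises. Without the block their falls shrank to 1, 1, 1 and 0. Basement membrane, integrin, matrix protease, coagulation, Wnt and secretory pathway genes held more rises than falls, which is also the direction of all genes. Without the block their rises numbered 5, 1, 6, 1, 7 and 2. Differences between lists were not tested. Of lists not taken up below, 2 of 27 hair follicle genes rose and 4 fell, 1 of 17 sebocyte genes rose and 3 fell, and 1 of 27 chemokine genes rose and 3 fell. These counts shrank without the block to 2 hair follicle rises and no other call. Ribosome biogenesis gave 1 rise among 50 genes and MHC class I 1 rise and 2 falls among 24. Among 16 mesenchymal markers 6 rose, beside the fibroblast genes. Members that also stand on a set-aside list were kept in the counts of their theme. They were 13 of the 16 mesenchymal markers (5 of the 6 rises), 7 of 49 Wnt genes (4 of 13 rises), 6 of 30 matrix protease genes (4 of 8), 3 of 14 hyaluronan genes (2 of 4) and 3 of 27 hair follicle genes (2 of 2). In the other lists they held at most 2 of the rises.

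**Figure D2:**
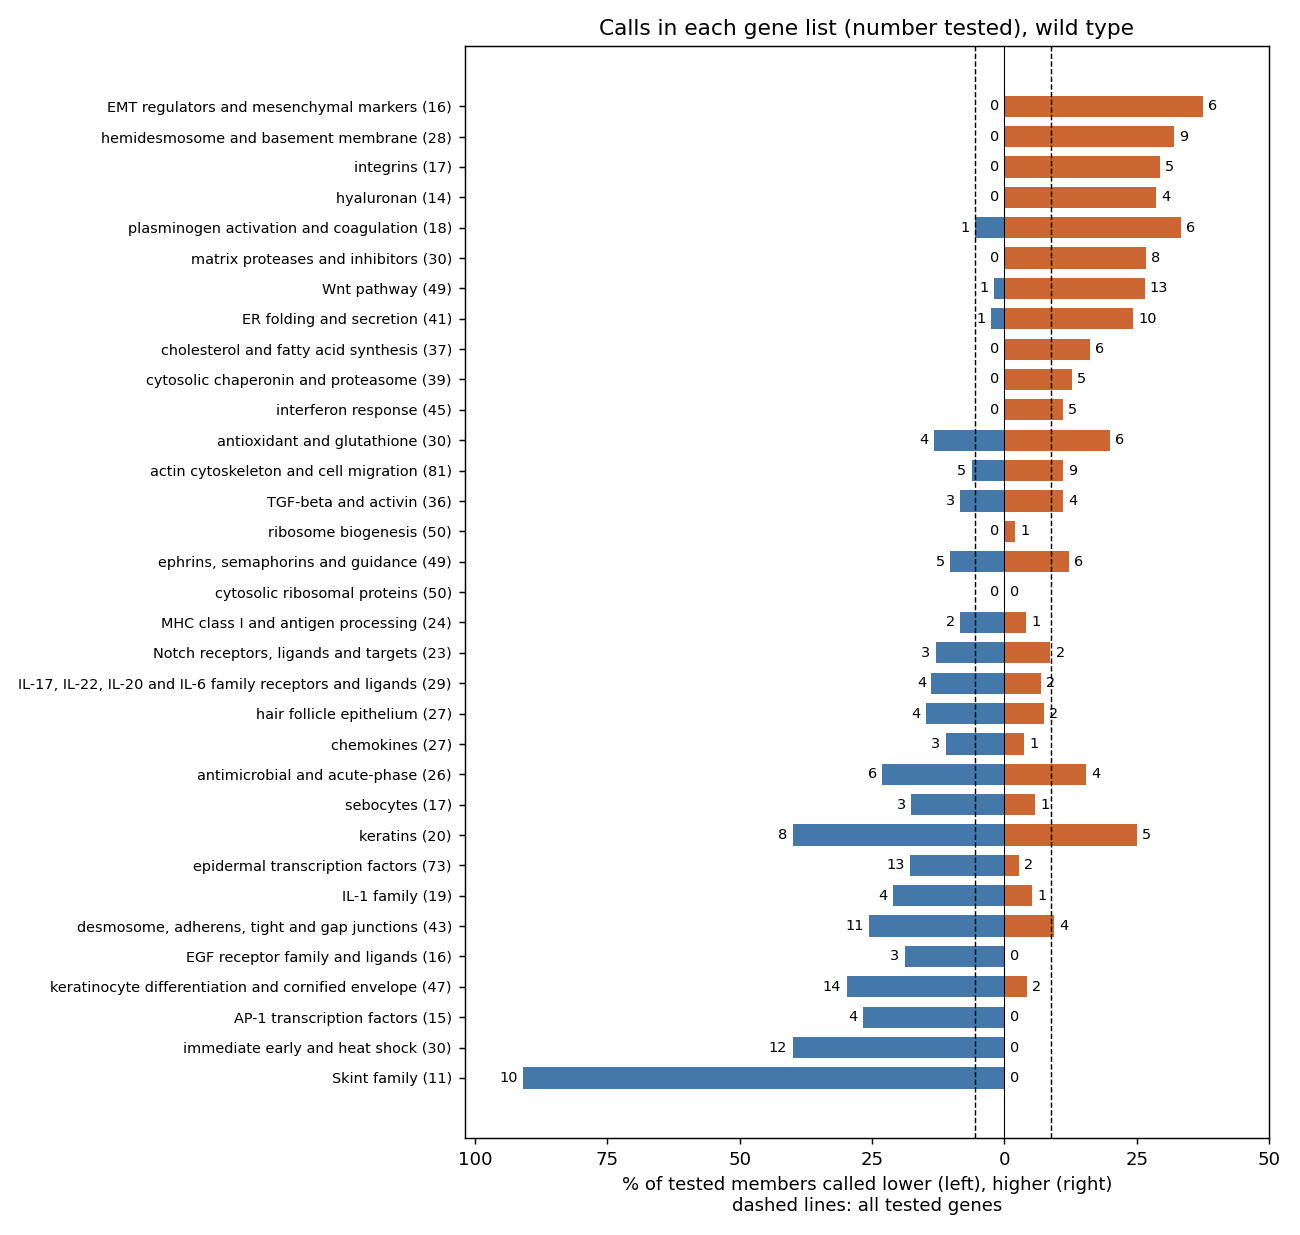
Percent of the tested members of each of 33 gene lists called higher (orange) or lower (blue) in wild-type A5-positive cells, with the number called at the bar's end, the number tested in brackets and dashed lines at 8.76% and 5.59%, the shares among all genes. The Skint family is at the lower end, with 10 of 11 members lower, and mesenchymal and basement membrane genes at the upper end.

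Keratins are the filament proteins of epithelial cells, and different pairs serve the basal layer, the upper layers and wounded epidermis. Of 20 keratins tested, 5 rose and 8 fell, with a median change of -0.40 (without the block 3 higher and 0 lower, on leaving out 1 pool 3 to 5 higher and 2 to 10 lower, robust 3 higher and 2 lower). Krt6a (GRCm38 chromosome 15, 101689910 to 101694307) went from 460.0, 559 and 489 CPM in A5-negative pools to 2566, 1779 and 1469 CPM in A5-positive pools, a change of 1.94 ± 0.31 (adjusted p = 0.00388). The groups did not overlap, and A5-positive pool 1 was the highest. Its neighbour Krt6b went from 62.1, 68.8 and 59.5 to 733, 334 and 342 CPM, a change of 2.77 ± 0.63 (adjusted p = 0.0178). The call was lost without A5-negative pool 1 (0.0754), A5-negative pool 3 (0.0923), A5-positive pool 1 (0.0661) or A5-positive pool 2 (0.071), with the adjusted p in brackets. Krt16, their partner in wounds, went from 552, 737 and 741 to 1778, 1138 and 1432 CPM, again without overlap, and changed by 1.10 ± 0.23 (adjusted p = 0.0114). This call ended without A5-negative pool 1 (0.058) or A5-negative pool 3 (0.0573). Krt17, another keratin of injured epidermis, stood at 4061, 4589 and 5157 against 4409, 4505 and 5399.7 CPM, and its change of 0.053 ± 0.15 (adjusted p = 0.841) did not pass and turned below 0 without A5-negative pool 3 or A5-positive pool 1.

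Some reads of Krt6a and Krt6b cannot be told apart. Of all stretches of 50 bases in Krt6a transcripts, 40.2% also occurred in Krt6b transcripts, and 44.5% the other way round, and the counting rule for shared reads is unknown. The opening 120 coding bases of each are shown to make this visible (GENCODE M21 transcripts, GRCm38, minus strand of chromosome 15). Capitals mark the start of the longest unbroken run that they share, coding bases 34 to 313, 280 bases in all.
Krt6a: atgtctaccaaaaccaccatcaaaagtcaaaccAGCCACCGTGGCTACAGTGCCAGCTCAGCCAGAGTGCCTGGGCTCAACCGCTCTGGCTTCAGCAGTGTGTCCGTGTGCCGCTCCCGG
Krt6b: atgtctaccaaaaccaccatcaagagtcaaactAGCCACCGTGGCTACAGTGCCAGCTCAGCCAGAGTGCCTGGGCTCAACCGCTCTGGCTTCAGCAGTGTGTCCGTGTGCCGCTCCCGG
A read of 50 bases from within that run fits both genes equally.

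The basal keratins rose. Krt14 went from 18380.5, 20052 and 13829 to 40577, 31061 and 23568 CPM, a change of 0.84 ± 0.13 (adjusted p = 0.00308), and Krt5 from 14306, 13798 and 9117 to 28400.3, 21523 and 14761 CPM, a change of 0.77 ± 0.13 (adjusted p = 0.00402). Both calls were robust, and neither gene overlapped between the fractions. Krt15, a keratin of resting basal and follicle bulge cells, did not pass, with 3754, 3180.1 and 2317 against 2324, 2624 and 2337 CPM and a change of -0.31 ± 0.17 (adjusted p = 0.233). Several keratins of the upper layers and of the follicle opening were lower. Krt79, which marks the infundibulum of the hair follicle, stood at 6874, 7459 and 9990.5 CPM against 2357, 4214 and 6976 CPM, a robust fall of -0.95 ± 0.18 (adjusted p = 0.00786), with A5-positive pool 3 just inside the A5-negative range. Krt80 stood at 598, 728 and 825 against 209, 406 and 528 CPM without overlap (-0.96 ± 0.20, adjusted p = 0.011), and its call ended without A5-negative pool 3 (0.0636) or A5-positive pool 2 (0.056). For Krt10, the suprabasal keratin, the levels were 3256, 4506 and 6214 against 1368, 2407 and 4439 CPM (-0.85 ± 0.22, adjusted p = 0.0269), with overlap, and the call ended without A5-negative pool 1 (0.0803), A5-negative pool 2 (0.0639), A5-negative pool 3 (0.112), A5-positive pool 1 (0.135) or A5-positive pool 2 (0.116). Its partner Krt1 showed no call, with 2151, 4089 and 4151 against 2374, 2869.6 and 5021 CPM and a change of -0.028 ± 0.21 (adjusted p = 0.942). Krt8, a keratin of simple epithelia, fell from 5.04, 8.67 and 3.94 to 1.96, 3.12 and 1.72 CPM (-1.34 ± 0.22, adjusted p = 0.00419), which was robust. Krt17, Krt15, Krt80, Krt10 and Krt1, and Krt77 in the plot, were chosen after their values were seen.

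**Figure D3:**
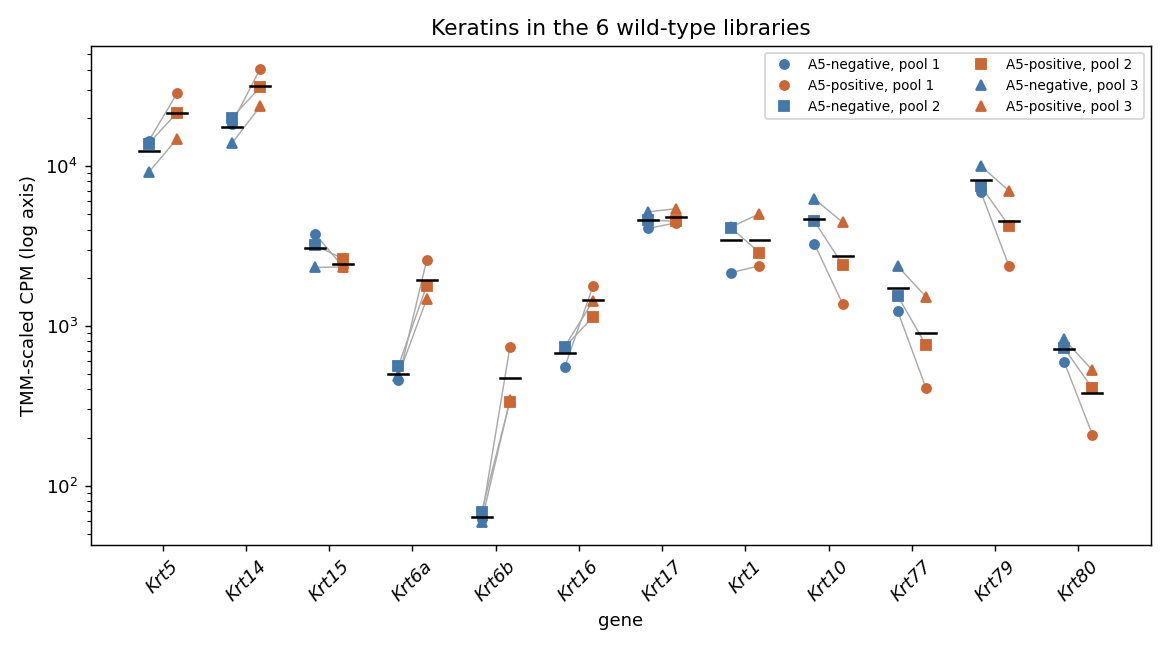
Levels of 12 keratins in the 6 wild-type pools (TMM-scaled CPM, log axis), A5-negative in blue and A5-positive in orange, with grey lines joining pools of the same number and black bars at the group means. Krt5, Krt14, Krt6a, Krt6b and Krt16 rise along every line, and Krt10, Krt77, Krt79 and Krt80 fall along every line.

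Neighbouring genes of the same family did not always move together. On chromosome 15, the tested type II keratins span 684.6 kb (101347444 to 102032027), and of 17 in this stretch 3 were higher and 6 lower. Krt6b, Krt6a and Krt5 lie side by side and were higher, whereas the called genes on either side were lower. The cornified envelope genes of chromosome 3 also held calls in both directions, with 2 higher and 3 lower of 25 tested. Among all genes 8.76% were higher and 5.59% lower. Sprr2a3 (small proline-rich protein) went from 57.6, 40.1 and 30.6 to 289, 135 and 113 CPM, a robust rise of 1.97 ± 0.30 (adjusted p = 0.00322). Sprr1a, another precursor of the cornified envelope (GRCm38 chromosome 3, 92483952 to 92485895), went from 933, 1102 and 1434 to 265, 558 and 906 CPM, a robust fall of -1.12 ± 0.21 (adjusted p = 0.00789). Neither overlapped between the fractions. Of the 50-base stretches of Sprr2a3, 61.1% also occur in Sprr2a1, so its counts are uncertain. Of the stefins, which inhibit cysteine proteases, 6 of 7 tested genes on chromosome 16 were higher and none lower (36119946 to 36455392). Among these 6, Csta1, Gm5416 and BC117090 averaged only 0.845, 0.135 and 0.651 CPM in A5-negative pools. Stfa3 changed by 1.41 (adjusted p = 0.0147), and its call ended without A5-negative pool 1 (0.0679), A5-negative pool 3 (0.0813), A5-positive pool 1 (0.0617) or A5-positive pool 2 (0.0651). Stfa1 went from 17.2, 14.8 and 11.4 to 128, 43.5 and 35.3 CPM (2.04 ± 0.40, adjusted p = 0.00946), with A5-positive pool 1 the highest, and its call ended without A5-negative pool 3 (0.0539). For BC100530 the levels were 108, 85.5 and 81.7 and 479.7, 204 and 212 CPM (1.59 ± 0.32, adjusted p = 0.0109), and the call ended without A5-negative pool 1 (0.0545) or A5-negative pool 3 (0.0642). Of their 50-base stretches 22.5% and 25.1% occur in other genes. The clusters and BC100530 were chosen after their values were seen.

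Skint genes encode membrane proteins of the butyrophilin kind in epidermis and thymus, and Skint1 is needed for the selection of the gamma delta T cells that live in mouse epidermis. All 11 that were tested lie on chromosome 4 within 2326 kb (111919392 to 114245028), and 10 fell while none rose (without the block 1 lower, on leaving out 1 pool 4 to 11 lower, robust 3 lower), with a median change of -1.15. The single member without a call was Skint7, at 8.80, 10.6 and 8.99 against 1.54, 5.22 and 5.05 CPM (-1.30 ± 0.42, adjusted p = 0.0607). Skint6 went from 24.9, 32.8 and 37.2 CPM to 4.92, 13.4 and 13.8 CPM, the steepest of these falls at -1.64 ± 0.25 (adjusted p = 0.00309). Skint9 went from 76.1, 56.7 and 128 to 17.4, 25.9 and 75.7 CPM (-1.28 ± 0.23, adjusted p = 0.00604) and Skint4 from 81.3, 82.7 and 101 to 35.8, 43.3 and 69.6 CPM (-0.87 ± 0.13, adjusted p = 0.00227). These 3 were robust, A5-positive pool 1 was the lowest for each, and for Skint9 alone the fractions overlapped. Skint1 itself fell less, from 57.9, 64.97 and 66.6 to 33, 43.98 and 54.2 CPM (-0.55 ± 0.12, adjusted p = 0.015), and its call ended without A5-negative pool 1 (0.0611), A5-negative pool 2 (0.0529), A5-negative pool 3 (0.0501), A5-positive pool 1 (0.0698) or A5-positive pool 2 (0.0632). Skint1, Skint3, Skint5 and Skint7 were chosen after their values were seen. In RORgt-deficient mice 8 fell and the median change of the family was -0.996.

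The sequences before the start sites of 4 of these genes shared a run of letters. Of the 250 bases upstream of each gene (RefSeq, GRCm38.p6), those of Skint1, Skint3, Skint5 and Skint6 held the same 14 bases, and among the promoters of 27025 genes searched on both strands no other held them. The run was found after the values were seen and is a description, not a binding site. The promoters are given so that their likeness can be read, with the run in capitals.
Skint1 (chr4:112006019-112006268, plus strand): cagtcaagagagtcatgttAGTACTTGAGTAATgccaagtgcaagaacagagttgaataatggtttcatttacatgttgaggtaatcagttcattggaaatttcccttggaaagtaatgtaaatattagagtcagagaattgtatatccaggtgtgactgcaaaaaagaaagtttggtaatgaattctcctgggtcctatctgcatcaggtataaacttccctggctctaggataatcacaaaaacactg
Skint3 (chr4:112231995-112232244, plus strand): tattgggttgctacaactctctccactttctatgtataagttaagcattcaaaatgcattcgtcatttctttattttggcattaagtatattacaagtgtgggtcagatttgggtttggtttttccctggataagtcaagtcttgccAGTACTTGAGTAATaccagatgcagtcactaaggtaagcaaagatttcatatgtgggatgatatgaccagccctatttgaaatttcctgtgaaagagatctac
Skint5 (chr4:113999504-113999753, minus strand): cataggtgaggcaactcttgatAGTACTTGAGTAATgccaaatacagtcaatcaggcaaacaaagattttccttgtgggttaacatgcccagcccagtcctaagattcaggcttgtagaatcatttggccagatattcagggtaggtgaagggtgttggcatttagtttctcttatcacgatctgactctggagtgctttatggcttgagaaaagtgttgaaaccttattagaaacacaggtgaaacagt
Skint6 (chr4:113286974-113287223, minus strand): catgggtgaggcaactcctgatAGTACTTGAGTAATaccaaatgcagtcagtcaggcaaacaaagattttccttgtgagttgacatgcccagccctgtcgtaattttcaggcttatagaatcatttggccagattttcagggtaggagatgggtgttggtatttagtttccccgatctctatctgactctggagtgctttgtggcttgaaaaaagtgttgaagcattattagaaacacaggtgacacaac
The run starts 231, 103, 228 and 228 bases before the start site. All 4 genes were lower in A5-positive cells, with changes of -0.55, -0.57, -1.16 and -1.64. The 7 other Skint promoters lack it, and 6 of those genes were lower as well.

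Genes of terminal differentiation build and shed the outer barrier. Of 47 tested, 14 fell and 2 rose, with a median of -0.33 (without the block 0 higher and 1 lower, on leaving out 1 pool 0 to 3 higher and 3 to 17 lower, robust 0 higher and 3 lower). Klk7, a protease that loosens cornified cells, went from 427, 671 and 719 to 114, 347 and 474 CPM (-1.12 ± 0.22, adjusted p = 0.00874), and Calm5, a calmodulin-like protein of differentiating keratinocytes, from 36.03, 34.01 and 38.7 to 12.6, 17.2 and 23.1 CPM (-1.07 ± 0.16, adjusted p = 0.00322). Both were robust, and for Klk7 alone A5-positive pool 3 reached into the A5-negative range. Abca12, the lipid transporter of the barrier, went from 112, 276 and 207 to 71.1, 157 and 131 CPM (-0.71 ± 0.13, adjusted p = 0.00799), and its call ended without A5-negative pool 3 (0.0535) or A5-positive pool 2 (0.0541). Of 73 transcription factors of epidermis, 13 were lower and 2 higher (without the block 2 higher and 0 lower, on leaving out 1 pool 1 to 2 higher and 2 to 18 lower, robust 1 higher and 2 lower). Their shares were 17.8% lower and 2.74% higher, beside 5.59% and 8.76% of all genes. Grhl3, which acts in barrier formation and wound closure, went from 274, 424 and 472 to 106, 239 and 286 CPM, a robust fall of -0.96 ± 0.14 (adjusted p = 0.00225) in which A5-positive pool 3 alone exceeded the lowest A5-negative pool. Gata6, a factor of the upper hair follicle and sebaceous duct, fell robustly from 47.9, 43.2 and 63.7 to 31.4, 22.9 and 45.7 CPM (-0.67 ± 0.12, adjusted p = 0.00676). Klf4, a factor of barrier formation, went from 461, 457 and 682 to 287, 329 and 432 CPM (-0.60 ± 0.14, adjusted p = 0.0181), and Ovol1, which restrains division of differentiating keratinocytes, from 424, 693 and 647 to 208, 388 and 403 CPM (-0.83 ± 0.19, adjusted p = 0.018). Neither overlapped between the fractions, and both were chosen after their values were seen. Their calls ended without A5-negative pool 3 (0.0865) or A5-positive pool 1 (0.0714) for Klf4, and without A5-negative pool 3 (0.107), A5-positive pool 1 (0.0886) or A5-positive pool 2 (0.0831) for Ovol1. Trp63, the factor of basal keratinocyte identity, did not pass, with 611, 735 and 724 against 670.2, 724 and 600.2 CPM and a change of -0.052 ± 0.15 (adjusted p = 0.842). Hmga2, a chromatin protein of embryonic and regenerating tissue, was barely detected in A5-negative pools (0.0538, 0.0847 and 0.0286 CPM) and stood at 2.43, 1.26 and 1.28 CPM in A5-positive pools, and its call (adjusted p = 0.00828) ended without A5-negative pool 3 (0.0544).

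Junctions join keratinocytes to each other. Of 43 junction genes, 11 fell and 4 rose (without the block 0 higher and 1 lower, on leaving out 1 pool 0 to 4 higher and 2 to 13 lower, robust 0 higher and 2 lower). Afdn, which ties nectins to actin, went from 137, 141 and 163 to 95.1, 94.1 and 113 CPM, a robust fall of -0.55 ± 0.085 (adjusted p = 0.00326) without overlap. Cldn7, a claudin of tight junctions, was at 6.79, 9.18 and 5.23 and 3.48, 4.86 and 2.62 CPM (-0.95 ± 0.17, adjusted p = 0.00604), also robust and without overlap. Ocln, the tight junction protein occludin, fell from 179.5, 267 and 221 to 69.8, 154 and 136 CPM (-0.93 ± 0.18, adjusted p = 0.0097), a call that ended without A5-negative pool 3 (0.0658) or A5-positive pool 2 (0.056). The 2 classical cadherins of epidermis went opposite ways. Cdh1 changed by -0.50 ± 0.13 (adjusted p = 0.032) and Cdh3 by 0.67 ± 0.13 (adjusted p = 0.0108), from 2017, 3289 and 2744 to 1466, 2223 and 1960.4 CPM and from 155, 159 and 142 to 305, 254 and 175 CPM. Gjb2, the gap junction protein connexin 26, rose from 86.1, 126 and 137 to 509, 271 and 267 CPM (1.63 ± 0.36, adjusted p = 0.0172). These last 3 genes were chosen after their values were seen. Their calls ended without A5-negative pool 1 (0.0659), A5-negative pool 2 (0.0707), A5-negative pool 3 (0.145), A5-positive pool 1 (0.121) or A5-positive pool 2 (0.126) for Cdh1, A5-negative pool 1 (0.0576) or A5-positive pool 2 (0.0551) for Cdh3 and A5-negative pool 1 (0.0797), A5-negative pool 3 (0.0813) or A5-positive pool 1 (0.0552) for Gjb2.

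Integrins hold keratinocytes to the matrix below. Among 17 integrins, 5 including Itga5 rose and none fell (without the block 1 higher, on leaving out 1 pool 1 to 5 higher, robust 1 higher). Itga3, a laminin receptor subunit, went from 134, 179.8 and 116 to 285, 259 and 139 CPM (0.64 ± 0.17, adjusted p = 0.0294) with overlap, and its call ended without A5-negative pool 1 (0.13), A5-negative pool 2 (0.0534), A5-negative pool 3 (0.0902), A5-positive pool 1 (0.132) or A5-positive pool 2 (0.0857). Itgb1, the partner of alpha5, showed no call at 0.23 ± 0.15 (adjusted p = 0.333). Of 28 hemidesmosome and basement membrane genes, 9 rose and none fell (without the block 5 higher, on leaving out 1 pool 2 to 7 higher, robust 2 higher). The chains of basement membrane collagen IV, Col4a1 and Col4a2, which share a start region and overlap by 22 bases, were both robust. Col4a1 went from 39.2, 52.2 and 53.02 to 114, 102 and 86.9 CPM (1.07 ± 0.16, adjusted p = 0.0029) and Col4a2 from 23.2, 24.7 and 23.96 to 69.9, 59.4 and 45.6 CPM (1.27 ± 0.21, adjusted p = 0.00416), with no overlap for either. The laminin chain genes Lama3 and Lamb3 changed by 0.78 ± 0.18 (adjusted p = 0.0187) and 0.50 ± 0.14 (adjusted p = 0.0356), both with overlap. Their calls ended without A5-negative pool 1 (0.0858), A5-negative pool 3 (0.0773), A5-positive pool 1 (0.0897) or A5-positive pool 2 (0.0655) for Lama3, and without any single one of the 6 pools for Lamb3 (adjusted p of 0.0765 to 0.149). Col17a1, the hemidesmosome collagen, showed no call (2239, 3615 and 1865 against 2879.7, 3719 and 1755 CPM, 0.10 ± 0.13, adjusted p = 0.625). Tenascin-C, Tnc, a matrix protein of wounds, rose from 54.2, 151 and 71.8 to 268, 401 and 330.5 CPM (1.91 ± 0.37, adjusted p = 0.00954), a call that ended without A5-negative pool 3 (0.0629). Itgb1, Lama3, Lamb3 and Col17a1 were chosen after their values were seen.

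Proteases of the matrix rose in 8 of 30 cases and fell in none (without the block 6 higher, on leaving out 1 pool 5 to 8 higher, robust 5 higher). Mmp3, stromelysin 1 (GRCm38 chromosome 9, 7445822 to 7455975), went from 25.4, 52.5 and 12.1 to 88.01, 154 and 137 CPM, a robust rise of 2.31 ± 0.40 (adjusted p = 0.00573) without overlap. Mmp14, a membrane-bound collagenase, stood at 172, 173 and 117 and 307, 394 and 387 CPM (1.25 ± 0.19, adjusted p = 0.00294), robust and without overlap as well. Adamts4, an aggrecanase, went from 4.18, 0.678 and 0.457 to 11.1, 28.3 and 25.6 CPM (3.97 ± 0.70, adjusted p = 0.00591). In the plasminogen and coagulation list 6 of 18 rose and 1 fell (without the block 1 higher and 0 lower, on leaving out 1 pool 2 to 3 higher and 0 to 2 lower, robust 1 higher and 0 lower). Thbd, thrombomodulin, which turns thrombin towards anticoagulation, went from 24.5, 22.9 and 40.4 to 70.2, 50.3 and 76.2 CPM, a robust rise of 1.17 ± 0.16 (adjusted p = 0.00176). Thbd is also an endothelial gene, and the endothelial list summed to 123, 32.9 and 25.4 CPM in A5-positive pools 1 to 3. The part of endothelial cells in its rise was not tested. Of 14 hyaluronan genes 4 rose and none fell (without the block 2 higher, on leaving out 1 pool 4 to 6 higher, robust 4 higher), among them the synthase Has3 (7.01, 11.2 and 4.37 against 31.4, 25.9 and 9.22 CPM, 1.52 ± 0.22, adjusted p = 0.00218), robust although A5-negative pool 2 exceeded A5-positive pool 3. In a fit with the mean of the fibroblast list as a covariate, the changes of Mmp14, Adamts4, Tnc and Lamb1 turned to -0.40, -2.01, -0.61 and -0.57. Those of Krt6a, Krt14, Col4a1 and Thbd, among the 203 of 216 named genes that kept their sign, were 3.58, 1.28, 1.15 and 1.66. No gene passed in that fit by edgeR (2383 at an unadjusted p under 0.05), in which the covariate separates the wild-type fractions without overlap (1.77 to 2.26 against 3.87 to 4.17 log2 CPM). With the fractions apart in the covariate, a kept or turned sign cannot tell which cells a change came from.

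By the naming rule, the robust rises beyond the keratins began with Aebp1, a matrix-associated carboxypeptidase-like protein, at 15.6, 9.60 and 12.9 against 64.6, 91.4 and 142 CPM (2.96 ± 0.26, adjusted p = 0.00015). It was followed by Pi15, a secreted peptidase inhibitor, at 6.79, 15.8 and 8.39 against 67.9, 60.5 and 31.7 CPM (2.44 ± 0.43, adjusted p = 0.00618), and Ces2g, a carboxylesterase, at 23.7, 23.8 and 14.1 against 193, 98.9 and 60.3 CPM (2.40 ± 0.27, adjusted p = 0.000649). None of the 3 overlapped, but A5-positive pools were ordered differently, with pool 3 the highest for Aebp1 and pool 1 for Pi15 and Ces2g. The summed defining fibroblast genes were highest in pool 3 and lowest in pool 1 among the A5-positive pools. The part of fibroblasts in these 3 rises was not tested. Scpep1, a lysosomal carboxypeptidase, rose from 147, 101 and 72.5 to 414, 417 and 332 CPM (1.92 ± 0.24, adjusted p = 0.00104), and Gpnmb, a transmembrane glycoprotein of lysosome-rich cells, from 23.3, 30.4 and 14.6 to 58.2, 88.4 and 96.8 CPM (1.87 ± 0.27, adjusted p = 0.00231). Nt5dc2 (2.05 ± 0.24, adjusted p = 0.000768) and the scavenger receptor gene Stab1 (1.74 ± 0.30, adjusted p = 0.00514) are neighbours on chromosome 14 on opposite strands and overlap by 112 bases. Nt5dc2 stood at 60.6, 46.1 and 39.7 against 340.4, 178 and 121 CPM and Stab1 at 25.7, 9.15 and 9.14 against 62.3, 41.04 and 34.02 CPM. Stab1 is also a gene of endothelium and macrophages, and the endothelial list summed to 123, 32.9 and 25.4 CPM in A5-positive pools 1 to 3. The part of endothelial cells and macrophages in its rise was not tested. Cdhr1, a cadherin-related protein (1.67 ± 0.29, adjusted p = 0.00591), and 2610528A11Rik, the mouse GPR15 ligand (1.87 ± 0.28, adjusted p = 0.003), also lie close together on chromosome 14, at 18.9, 15.5 and 13.8 against 68.8, 51.9 and 33.7 CPM and 22.1, 13.2 and 14.6 against 116, 39.5 and 46.7 CPM. Duox1, an oxidase that makes hydrogen peroxide at epithelial surfaces, went from 11.1, 24.3 and 17.4 to 41.3, 36.8 and 35.6 CPM (1.16 ± 0.22, adjusted p = 0.00832), and Abcg2, an efflux transporter, from 33.6, 34.5 and 18.7 to 89.7, 64.6 and 42.2 CPM (1.16 ± 0.18, adjusted p = 0.00333). Both were robust, without overlap, and chosen after their values were seen. Off the lists for other cells, the smallest p-values among rises belonged to genes at or below about 1 CPM in A5-negative pools, such as the complement protease gene Masp1 (0.556, 0.339 and 0.685 against 15.02, 20.6 and 32.5 CPM, 5.39 ± 0.29, adjusted p = 2.17e-05) and the scavenger receptor gene Scarf2 (1.09, 0.791 and 0.514 against 24.8, 38.5 and 60.3 CPM, 5.66 ± 0.40, adjusted p = 7.08e-05). Both were lowest in A5-positive pool 1 and highest in A5-positive pool 3, as were the summed defining fibroblast genes. The part of fibroblasts in the rises of Masp1 and Scarf2 was not tested.

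Among the falls of this rule, Pkib, an inhibitor of protein kinase A, went from 66.3, 76.1 and 79.9 to 17.3, 32 and 39.8 CPM, a robust change of -1.35 ± 0.22 (adjusted p = 0.00409) without overlap. Pglyrp4, a bactericidal peptidoglycan recognition protein of skin, went from 48, 53.1 and 51.5 to 12.2, 29.4 and 30.1 CPM (-1.18 ± 0.21, adjusted p = 0.00637), and Abcg1, a cholesterol exporter, from 28.7, 21.4 and 18.5 to 8.28, 14.6 and 10.2 CPM (-1.07 ± 0.21, adjusted p = 0.00903). Both were robust and without overlap. Mapk8ip3, a scaffold that links JNK kinases to kinesin, was at 24.1, 46.9 and 34.3 against 15.7, 21.04 and 13.7 CPM (-1.04 ± 0.15, adjusted p = 0.00209), and the splicing-related gene Rsrp1 at 319, 491 and 291 against 126, 237 and 175 CPM (-1.04 ± 0.15, adjusted p = 0.00206), again robust. The smallest p among falls was that of H2-Q5, a non-classical MHC class I gene, at 19.5, 25.3 and 17.5 against 7.05, 12.5 and 8.95 CPM (-1.15 ± 0.13, adjusted p = 0.000768). Of its 50-base stretches 36.4% occur in other genes. Firre, a long noncoding RNA of the X chromosome that shapes nuclear organisation, fell robustly from 8.94, 14.1 and 11.05 to 3.10, 4.95 and 4.75 CPM (-1.41 ± 0.19, adjusted p = 0.00173). Nfatc2, a calcium-dependent transcription factor chosen after its values were seen, fell robustly from 12.5, 22.2 and 24.7 to 3.76, 8.74 and 11.6 CPM (-1.36 ± 0.20, adjusted p = 0.00225). Long noncoding RNAs made up 8 of 1461 higher genes, 35 of 933 lower genes and 1260 of 14283 genes without a call, without a test. The median transcript length was 2957 bases for higher, 3901 for lower and 3045 for genes without a call. The median of the mean A5-negative level was 15.5, 61.7 and 9.03 CPM in the same order. The part of expression level in the noncoding counts and the lengths was not tested.

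The EGF receptor is the main driver of keratinocyte migration and division, and of 16 genes of its family and ligands 3 fell and none rose (without the block 0 lower, on leaving out 1 pool 0 to 5 lower, robust 0 lower). The ligand genes Tgfa (-0.46 ± 0.12, adjusted p = 0.0269) and Hbegf (-0.50 ± 0.13, adjusted p = 0.0319) were among them, at 208, 319.9 and 304 against 131, 266 and 220.3 CPM and 222, 305 and 285 against 142, 207 and 226 CPM, both with overlap. Their calls ended without A5-negative pool 1 (0.0852), A5-negative pool 3 (0.126), A5-positive pool 1 (0.122) or A5-positive pool 2 (0.0628) for Tgfa and without A5-negative pool 1 (0.0717), A5-negative pool 2 (0.0802), A5-negative pool 3 (0.131), A5-positive pool 1 (0.147) or A5-positive pool 2 (0.116) for Hbegf. In the TGF-beta list 4 of 36 rose and 3 fell (without the block 3 higher and 0 lower, on leaving out 1 pool 3 to 4 higher and 0 to 6 lower, robust 3 higher and 0 lower), near the shares over all genes. Ltbp1, which stores latent TGF-beta in the matrix, went from 39.1, 46.3 and 38.8 to 113, 118 and 111 CPM, a robust rise of 1.46 ± 0.12 (adjusted p = 0.000131) without overlap. Of 49 Wnt pathway genes 13 rose and 1 fell (without the block 7 higher and 0 lower, on leaving out 1 pool 5 to 12 higher and 1 lower, robust 5 higher and 1 lower). The ligand gene Wnt5a went from 7.44, 14.1 and 6.82 to 22, 23.3 and 17.2 CPM (1.17 ± 0.21, adjusted p = 0.00671) and Wnt4 from 111, 88.7 and 76.4 to 188, 134 and 106 CPM (0.61 ± 0.11, adjusted p = 0.00706), both robust. Wnt11 was the exception, at 82.3, 101 and 93.2 against 32.9, 66.1 and 59.5 CPM, a robust fall of -0.85 ± 0.14 (adjusted p = 0.00468) without overlap. Rspo4, an amplifier of Wnt signals, was at 0.0359, 0.0565 and 0 CPM in A5-negative pools and 2.82, 5.25 and 6.36 CPM in A5-positive pools. The part of fibroblasts in this rise was not tested. Among Notch genes 2 of 23 rose and 3 fell (without the block 1 higher and 0 lower, on leaving out 1 pool 1 to 2 higher and 0 to 3 lower, robust 1 higher and 0 lower). The Notch shares were 8.7% and 13%, beside 8.76% higher and 5.59% lower among all genes.

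The cytoskeleton list gave 9 rises and 5 falls among 81 genes (without the block 3 higher and 0 lower, on leaving out 1 pool 2 to 6 higher and 1 to 7 lower, robust 1 higher and 1 lower), shares near those of all genes. Fscn1, fascin, which bundles actin in filopodia, went from 88.5, 85.3 and 84.5 to 334, 232 and 154 CPM, a robust rise of 1.45 ± 0.25 (adjusted p = 0.00522) without overlap. Myh14, a non-muscle myosin heavy chain, went from 88.9, 151 and 119 to 36.02, 86.9 and 72.1 CPM, a robust fall of -0.92 ± 0.16 (adjusted p = 0.00618). Guidance genes were split, with 6 of 49 higher and 5 lower (without the block 4 higher and 0 lower, on leaving out 1 pool 3 to 6 higher and 2 to 7 lower, robust 3 higher and 1 lower). These were shares of 12.2% and 10.2%, beside 8.76% and 5.59% of all genes. Netrin 1, Ntn1, stood at 0.735, 0.452 and 0.2 against 7.37, 10.03 and 8.31 CPM (4.25 ± 0.37, adjusted p = 0.000144) and Sema3a at 0.556, 0.367 and 0.314 against 5.16, 10.5 and 14.3 CPM (4.44 ± 0.46, adjusted p = 0.000404). Both rises were robust, and the part of fibroblasts in them was not tested. Sema6a, a transmembrane semaphorin, fell robustly from 35.4, 37.2 and 40.97 to 18.1, 20.6 and 28.7 CPM (-0.79 ± 0.14, adjusted p = 0.00652).

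Genes of defence and inflammation held calls in both directions, as did all genes, of which 8.76% were higher and 5.59% lower. In the antimicrobial and acute-phase list 4 of 26 rose and 6 fell (without the block 2 higher and 0 lower, on leaving out 1 pool 0 to 4 higher and 1 to 6 lower, robust 0 higher and 1 lower). Among IL-1 family genes 1 of 19 rose and 4 fell (without the block 0 higher and 1 lower, on leaving out 1 pool 1 higher and 1 to 4 lower, robust 1 higher and 1 lower). The shares higher and lower were 15.4% and 23.1% in the antimicrobial list and 5.26% and 21.1% in the IL-1 list. Il18 was the riser, at 4.36, 1.67 and 2.23 against 12.4, 9.10 and 7.71 CPM (1.94 ± 0.30, adjusted p = 0.00328), robust and without overlap. Casp4, an inflammatory caspase, fell robustly from 23.8, 17.99 and 18.2 to 9.91, 13.3 and 9.39 CPM (-0.90 ± 0.17, adjusted p = 0.00841). Il1a, the alarm cytokine stored in keratinocytes, went from 26.4, 54.4 and 38.9 to 10.9, 31.9 and 22.6 CPM (-0.91 ± 0.23, adjusted p = 0.0244) with overlap, and its call ended without A5-negative pool 2 (0.0599), A5-negative pool 3 (0.119), A5-positive pool 1 (0.0785) or A5-positive pool 2 (0.071). Il19 and Il24, cytokines of the IL-20 group made by keratinocytes, rose from 1.85, 2.15 and 2.91 to 12.9, 15.3 and 5.99 CPM (2.39 ± 0.47, adjusted p = 0.01) and from 11.9, 10.7 and 16.8 to 24.2, 20.5 and 26.8 CPM (0.89 ± 0.19, adjusted p = 0.0136). The Il19 call ended without A5-positive pool 2 (0.0573), and that of Il24 without A5-negative pool 2 (0.0582), A5-negative pool 3 (0.0641) or A5-positive pool 1 (0.0785). Il17ra, the shared receptor chain for IL-17 and chosen after its values were seen, changed by -0.52 ± 0.14 (adjusted p = 0.0381), a call that ended without A5-negative pool 1 (0.13), A5-negative pool 3 (0.177), A5-positive pool 1 (0.189) or A5-positive pool 2 (0.122). In the interferon list 5 of 45 rose, none fell and 38 had a change above 0 (without the block 2 higher, on leaving out 1 pool 1 to 4 higher, robust 1 higher). The rises were a share of 11.1%, beside 8.76% of all genes. Iigp1, an interferon-induced GTPase, went from 7.30, 5.99 and 4.11 to 15.02, 14.2 and 16.9 CPM (1.41 ± 0.22, adjusted p = 0.00313), robust and without overlap. Nlrc5, the activator of MHC class I genes, fell robustly from 88.8, 147 and 106 to 48.7, 90.9 and 66.6 CPM (-0.74 ± 0.13, adjusted p = 0.00593).

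Genes of protein making differed in how many passed. In the list for folding and secretion in the endoplasmic reticulum 10 of 41 rose and 1 fell (without the block 2 higher and 1 lower, on leaving out 1 pool 3 to 9 higher and 0 to 3 lower, robust 3 higher and 0 lower). Ddost, a subunit of the enzyme that attaches sugars to new proteins, went from 235, 189.7 and 206 to 438, 318 and 331 CPM (0.78 ± 0.12, adjusted p = 0.00309), and Pdia4, a disulfide isomerase, from 170.2, 173 and 165 to 341, 287 and 253 CPM (0.79 ± 0.12, adjusted p = 0.00322). Both were robust and did not overlap. Of the chaperonin and proteasome genes 5 of 39 passed (without the block 0 higher, on leaving out 1 pool 0 to 7 higher, robust 0 higher), a share of 12.8% beside 8.76% of all genes. The estimates of all 39 were above 0, with a median of 0.33. The ribosomal protein list had no call among 50 genes, with 48 above 0 and a median of 0.25. Cholesterol and fatty acid synthesis gave 6 rises among 37 and none of its genes fell (without the block 0 higher and 0 lower, on leaving out 1 pool 0 to 3 higher and 0 to 2 lower, robust 0 higher and 0 lower). Gpx2, a glutathione peroxidase of epithelia, rose robustly from 7.82, 5.42 and 3.37 to 31.1, 13.3 and 11.98 CPM (1.72 ± 0.29, adjusted p = 0.00487), and 6 of 30 antioxidant genes rose while 4 fell (without the block 2 higher and 0 lower, on leaving out 1 pool 1 to 7 higher and 0 to 5 lower, robust 1 higher and 0 lower).

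Immediate early and heat shock genes, which cells switch on within minutes of a stimulus, were lower in 12 of 30 cases and higher in none (without the block 0 lower, on leaving out 1 pool 1 to 18 lower, robust 1 lower). Egr2, an early response transcription factor, stood at 370.3, 375 and 540.0 CPM against 187, 202 and 386 CPM (-0.78 ± 0.14, adjusted p = 0.00659), a robust fall in which A5-positive pool 3 lay within the A5-negative range. Of the AP-1 family and its partners 4 of 15 fell and none rose (without the block 0 lower, on leaving out 1 pool 0 to 7 lower, robust 0 lower), and 1 had a change above 0. Atf3 went from 1798, 2244 and 1986 to 844, 1395 and 1293 CPM (-0.77 ± 0.20, adjusted p = 0.0285) and Mafk from 308, 427 and 443 to 165, 273 and 301 CPM (-0.69 ± 0.15, adjusted p = 0.0149), both without overlap. These calls ended without A5-negative pool 1 (0.0644), A5-negative pool 2 (0.0585), A5-negative pool 3 (0.144), A5-positive pool 1 (0.117) or A5-positive pool 2 (0.098) for Atf3 and without A5-negative pool 3 (0.0916), A5-positive pool 1 (0.0778) or A5-positive pool 2 (0.0736) for Mafk. Fosl1, chosen after its values were seen, did not pass at -0.52 ± 0.16 (adjusted p = 0.0567).

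AP-1 proteins bind the palindrome TGANTCA. Among promoters of the tested genes that were found in the table (the 250 bases before the start, 11593 genes), 4.99% held it, against 4.43% for the higher and 6.97% for the lower genes and 6.87% of all 27025 promoters. Of 216 named genes, 160 had a promoter in the table. The robust gene Mmp3, which rose, and Sprr1a, which fell, both held the motif and were chosen for print after the matches were seen. Their promoters are given with each match in capitals (RefSeq, GRCm38.p6).
Mmp3 (chr9:7445572-7445821, plus strand): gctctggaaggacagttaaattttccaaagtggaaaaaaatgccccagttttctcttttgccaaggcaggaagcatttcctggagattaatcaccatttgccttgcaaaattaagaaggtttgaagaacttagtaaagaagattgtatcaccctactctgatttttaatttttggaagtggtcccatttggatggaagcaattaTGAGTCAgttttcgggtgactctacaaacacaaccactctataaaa
Sprr1a (chr3:92485882-92486131, minus strand): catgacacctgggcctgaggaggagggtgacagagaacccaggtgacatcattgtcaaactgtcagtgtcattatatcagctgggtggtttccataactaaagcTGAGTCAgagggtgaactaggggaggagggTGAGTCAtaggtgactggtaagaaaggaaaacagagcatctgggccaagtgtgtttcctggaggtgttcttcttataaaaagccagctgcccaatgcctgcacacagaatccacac
The match starts 46 bases before the Mmp3 start site and the 2 matches start 146 and 116 bases before that of Sprr1a. Matching letters are a description, and the motif was present beside genes of both directions. No match lay in the same window of Itga5, Krt14, Grhl3 or Skint6.

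In RORgt-deficient mice the same contrast called 1679 genes higher (10.1%) and 1258 lower (7.54%). No pool is shared between the contrasts of the genotypes. The test of the difference between genotypes called 0 genes by edgeR (910, 5.46%, at an unadjusted p under 0.05), 25 by DESeq2 and 0 by limma voom. Krt6a changed by 1.94 in wild-type and by 1.59 (adjusted p = 0.00685) in RORgt-deficient mice, Skint6 by -1.64 and -1.34 (adjusted p = 0.00473), and Grhl3 by -0.96 and -0.96 (adjusted p = 0.00121). The estimates for Krt16 were 1.10 and 0.33 (adjusted p = 0.334), those for Stab1 1.74 and 0.47 (adjusted p = 0.287), and those for Thbd 1.17 and 0.44 (adjusted p = 0.0841). A call in wild-type mice alone, as for these last 3, does not show a difference, and their interaction estimates were 0.78 ± 0.31, 1.27 ± 0.41 and 0.74 ± 0.23, none past the threshold.

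**Figure D4:**
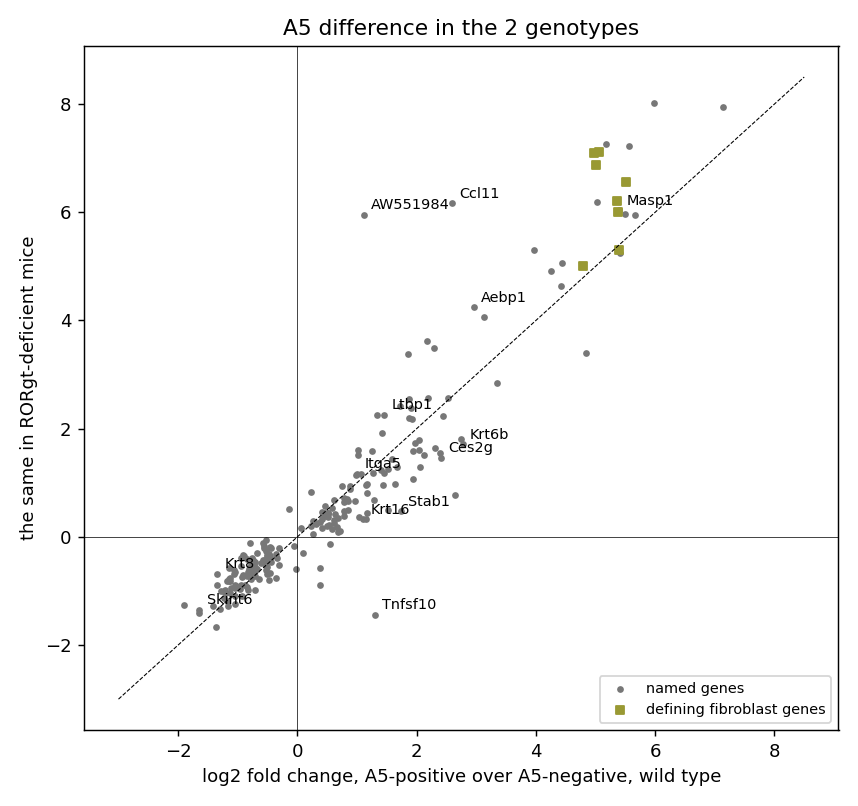
Log2 fold change of A5-positive over A5-negative for the named genes (grey) and the 8 defining fibroblast genes (squares) in wild-type mice (horizontal axis) and RORgt-deficient mice (vertical axis), with a dashed line of equal change. Tnfsf10 stands at 1.30 and -1.44, below the line, and Ccl11 at 2.59 and 6.17, above it.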

How the data were processed

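RNA of sorted wound epithelium was measured in 12 libraries, 3 in each of 4 groups. The authors deposited raw, unnormalized read counts for each gene symbol. Per the submitters' processing notes, bcl2fastq, Trimmomatic 0.36, STAR and featureCounts were used with mm10 (GRCm38). Annotation release, strand setting and multi-mapping rule were not given in the sources used here. Reads of near-identical or overlapping genes may therefore be shared, and 46 of 216 named genes, among them Adamts4, Has3, Il18, Gpx2, Gata6, Afdn, Mafk and Tnc, overlap a tested gene on the opposite strand.

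Of 55341 rows, 26 with symbols turned into dates (0.11% to 0.128% of a library) were left out. Positions and gene types came from GENCODE M21. Total counts ran from 29259516 to 74474252 per library. Depth gives counting error only, since no molecular identifiers were used. Counts were analysed in edgeR 4.0.16 (R 4.3.3) with TMM factors and filterByExpr by group, which left 16677 genes. A single quasi-likelihood model of the 4 groups over all 12 libraries had the pool number as a block. Benjamini-Hochberg adjustment ran over all genes (threshold 0.05), and standard errors were derived from the F statistic. Gene lists were described by counts and medians, with no test.

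Residuals after group means over 7424 genes correlated for all 18 pairs of same-numbered libraries (0.167 to 0.756; 36 pairs of different numbers gave -0.683 to 0.347), so the numbers pair the libraries. Alternatives were no block, a block by genotype and number, RLE factors, DESeq2 1.42.0, no filter, a CPM of 5 in 3 libraries, limma 3.58.1 voom with quality weights, the 6 wild-type libraries alone, a fibroblast covariate and leaving out each wild-type library. The model was tested on simulated data. Of tested genes given a log2 change of 1 in either direction, 55.1% (54 of 98) were called in the right direction. For a log2 change of 2 the share was 76% (73 of 96). Of the unchanged genes, 7 were called. A gene without a call may therefore still differ.

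The genes and lists were chosen with earlier results of these data known. The rule named the sort and exclusion markers with Krt6a and Krt16, and the 15 largest rises and 15 largest falls with a mean of at least 10 CPM in the lower group and no overlap (protein-coding genes for rises). It added the 5 smallest p-values in each direction, up to 4 genes of smallest p from each of 33 lists, 6 genes of smallest interaction p and 5 fibroblast genes. Except for the fibroblast genes and markers, genes on the 11 lists for division, glycolysis and other cell types were passed over. A gene outside the rule is marked in the text as picked with its values in view, and not every gene it named is described.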

Additional observations from a re-analysis of the deposited data

Results flagged for a closer look

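In 3 named genes every wild-type pair of pools moved one way and every RORgt-deficient pair the other. Tnfsf10, which encodes the death ligand TRAIL, changed by 1.30 ± 0.36 (adjusted p = 0.0357) in wild-type and by -1.44 (adjusted p = 0.0214) in RORgt-deficient mice, going from 0.609, 1.24 and 0.6 to 2.29, 2.52 and 1.11 CPM in wild-type pools. The estimates for Pacs1, a sorting protein of the trans-Golgi network, were 0.54 ± 0.094 (adjusted p = 0.00589) and -0.13 (adjusted p = 0.349), and those for Gramd2, a GRAM domain protein, were 0.37 ± 0.12 (adjusted p = 0.0671) and -0.58 (adjusted p = 0.0107). The rule for named genes picked these for small interaction p-values, and the edgeR test of the difference itself gave an adjusted p of 0.769 for each. Groups of 3 pools were too small to flag single outlying pools.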

How the results depend on the processing

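The count of 2394 changed genes (1461 higher, 933 lower) fell to 575 (520 and 55) without the replicate block, and all of those were shared. DESeq2 called 1703 lower genes. Its split and that of the filter at a CPM of 5 were close to even (1827 higher, and 1267 against 1248). With the fibroblast covariate, edgeR called 0, 0 higher and 0 lower (2383 at an unadjusted p under 0.05). Leaving out 1 wild-type library gave 579 to 2357 genes (431 to 1281 higher, 148 to 1076 lower). The difference between genotypes gave 30 genes without the filter on low counts and 25 with DESeq2, against 0.

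Signs turned under the fibroblast covariate for Tnc (-0.61), Lamb1 (-0.57), Mmp14 (-0.40), Adamts4 (-2.01), Tfpi (-0.81), Bmp1 (-0.22), Fn1 (-1.83), Saa3 (-3.64), Ccl11 (-0.014), Ifit3 (-0.00061), Layn (-5.71), AW551984 (-0.077) and Col17a1 (-0.0899), and 203 of 216 named genes kept theirs. Pecam1 turned with the block by genotype (-0.044) and the wild-type libraries alone (-0.065), and ran from -1.37 to 0.92 on leaving out 1 library. Among uncalled genes, leaving out 1 library also turned Col17a1 (-0.015 to 0.15), Krt17 (-0.026 to 0.063), Krt1 (-0.31 to 0.12) and Trp63 (-0.17 to 0.0080). Of 216 named genes, 120 lost their call without the block and none changed sign. The cause of each change was not tested. Precision is limited by 3 pools a side, and genes below about 1 CPM rest on few reads.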
